A study of Mus musculus with 4 samples.

Results

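The chemokine ligand genes are the protein-coding genes whose symbols are Ccl or Cxcl with a number, together with Cx3cl1 and Xcl1. The mouse gene table held 39 of them among 21896 protein-coding genes, and 38 had a position on a chromosome, of 21519 such genes on chromosomes 1 to 19 and X. Ccl21c was listed only on an unplaced scaffold and was not analysed here. A peak belonged to a gene when its summit lay inside the gene's span or within 10 kb of either end, and a peak in reach of several clustered genes was counted once. These windows held 33 distinct peaks in each of 2 deposited peak lists.

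The study asked which regulatory elements TEAD1 binds in cardiac fibroblasts of newborn mice, the cells that build the heart's connective tissue. ChIP-seq, the sequencing of DNA recovered with an antibody from crosslinked chromatin, was carried out in OE-TEAD1 cells, which carried a TEAD1 overexpression construct, and in OE-NC cells, which carried its negative control. Each genotype gave 1 ChIP library and 1 input library, input being chromatin set aside before the antibody step, so the 4 groups held 1 library each. Neither deposited list is tied to a genotype by the labels, so the names list 1 and list 2 are used and no effect of TEAD1 overexpression is given. The sources used here name neither the promoter of the construct, nor the antibody, nor the number of animals behind the cultures. Peaks measure no RNA, so the labelled cell type could not be checked by expression. With no replicates there was no spread to set a difference against, and no test between the lists was made.

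Chemokines are small secreted proteins that guide leukocytes by binding G protein-coupled receptors on them, and they are classed by the spacing of their conserved cysteines. Cardiac fibroblasts release several of them after injury, and monocytes and neutrophils are drawn to the heart by such signals. TEAD1 carries the coactivators YAP and TAZ to DNA, where it recognises the letters GGAATG. It is known to bind many sites far from gene starts, while NF-kB is the factor best known for switching chemokine genes on.

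Peaks lay near just over 50% of the placed chemokine ligand genes in both lists. In list 1, 20 of 38 genes (52.6%) had a summit in reach, against 33.9% of all protein-coding genes. In list 2 the count was also 20 of 38 (52.6%), against 34.0% of all protein-coding genes. A peak in both lists was found for 17 genes (44.7%), against 28.1% of all protein-coding genes. A peak in either list was found for 23 chemokine ligand genes, beside a background of 39.7%. Cxcl3, Cxcl2 and Cxcl9 had a peak in list 1 alone, and Cxcl15, Cxcl10 and Cxcl12 had one in list 2 alone. Shared peaks of neighbouring genes enter several of these counts, so genes of a cluster are not independent of each other.

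Strong peaks, of at least 10-fold over input, were found near 8 genes in list 1 (21.1%, background 11.6%) and near 8 genes in list 2 (21.1%, background 13.5%). In both lists this held for 6 genes (15.8%, background 9.85%), namely Cx3cl1, Ccl2, Ccl9, Ccl6, Cxcl5 and Cxcl17. In either list it held for 10 genes, beside a background of 15.2%, with Ccl5 and Ccl11 added from list 1 and Ccl1 and Ccl28 from list 2. The fold is the authors' ratio of ChIP fragments at the summit to the local input background, with 1 added to each. Among genes with a peak, the median fold of the strongest peak was 8.56 for chemokine ligand genes in list 1 against 7.71 for all protein-coding genes, and 7.34 in list 2 against 8.29. The chemokine medians were thus above the overall median in list 1 and below it in list 2.

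The counts varied by ligand class, and no test was made of this. Over all protein-coding genes the shares were 33.9% in list 1, 34.0% in list 2, 28.1% in both and 39.7% in either. Of the 24 placed CC ligands, 12 had a peak in both lists and the other 12 in neither. The 5 CXC ligands of the neutrophil-attracting type carry the residues ELR before their cysteines. Of these, 4 had a peak in list 1, 3 in list 2, 2 in both and 5 in either. Cxcl2, Cxcl3 and Cxcl15 had theirs in a single list, at 4.05-fold, 4.77-fold and 7.68-fold. Of the 7 other CXC ligands, 3 had a peak in list 1 and 4 in list 2. Cx3cl1, the single CX3C ligand, had peaks in both lists, and the XC ligand Xcl1 had none.

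Chemokine ligand genes are short, with a median span of 4.00 kb against 17.4 kb for all protein-coding genes, and their merged windows covered 0.970 Mb. Peaks occurred there at 34.0 per Mb in each list, against 10.5 per Mb in list 1 and 10.3 per Mb in list 2 over the merged windows of all protein-coding genes. The 2 clusters on chromosome 11 carried much of this. Without them the density was 22.3 per Mb in list 1 and 18.4 per Mb in list 2, and 12 of 27 genes (44.4%) had a peak in each list. The windows of all protein-coding genes covered 1278 Mb and took in the insides of long genes. The densities were not matched for this. The comparison of gene shares also depended on the window. Within 1 kb of the span, 21.1% of chemokine ligand genes had a summit in list 1 and 23.7% in list 2, against 23.2% of all protein-coding genes in both lists.

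**Figure D1:**
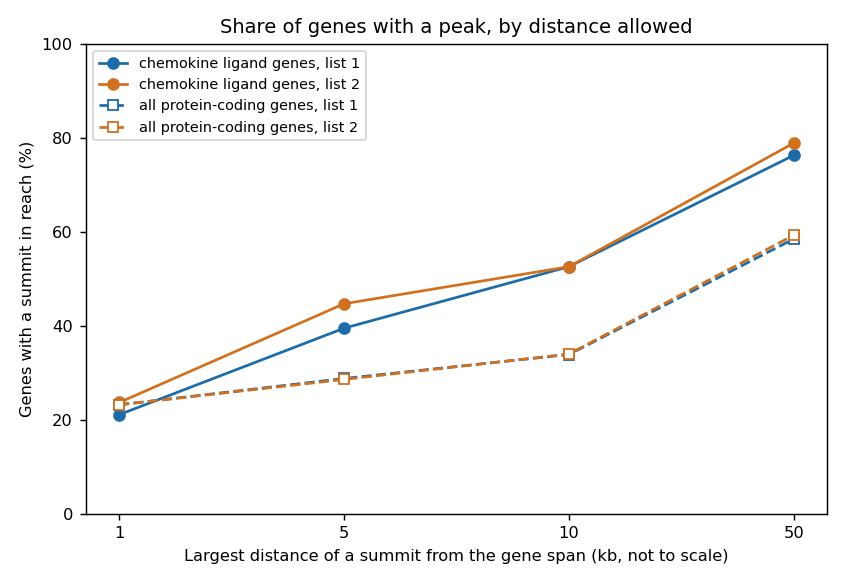
Percentage of genes (y axis) with a summit inside the span or within 1, 5, 10 or 50 kb of it (x axis, spaced evenly and not to scale); filled circles are the 38 placed chemokine ligand genes, open squares the 21519 placed protein-coding genes, blue list 1 and orange list 2. At 1 kb the shares lie together between 21.1% and 23.7%, and at 10 kb the chemokine ligand genes stand at 52.6% against 33.9% in list 1 and 34.0% in list 2.

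The 33 peaks of list 1 and the 33 of list 2 formed 40 sites, a site being peaks that overlap by at least 1 bp. Both lists held a peak at 24 of these, while 8 were called in list 1 alone and 8 were called in list 2 alone. In each list 25 of the 33 peaks (75.8%) overlapped a peak of the other list, against 70.9% of all peaks in list 1 and 71.4% in list 2. The sites called once were weak. Those of list 1 had 10 to 20 fragments and folds of 4.04 to 7.71, and those of list 2 had 10 to 21 fragments and folds of 3.61 to 7.68. All 13 sites that reached 10-fold in a list were called in both. The matching share for all peaks of at least 10-fold is not given here, so this count is not particular to chemokine sites.

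Most sites lay outside the genes, but so did most of the window of a gene with the median span of 4.00 kb. The matching share for all protein-coding genes is not given here. Of the 40 sites, 8 had their summit inside a chemokine gene's span, 2 lay within 1 kb outside it, 19 lay 1 to 5 kb away and 11 lay 5 to 10 kb away. Another protein-coding gene was nearer at 6 sites. The median peak held 25 fragments at its summit in list 1 and 24 in list 2, against 19 and 22 for all peaks of the lists. Median widths were 573 bp in list 1 and 418 bp in list 2, against 472 and 445 bp for all peaks. At this depth a 10-fragment peak has a wide interval, and the Cxcl12 peak of list 2 rested on 10 fragments and was 3.84-fold over input (95% exact Poisson interval 2.02 to 6.77). These intervals cover counting error of the ChIP library only.

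**Figure D2:**
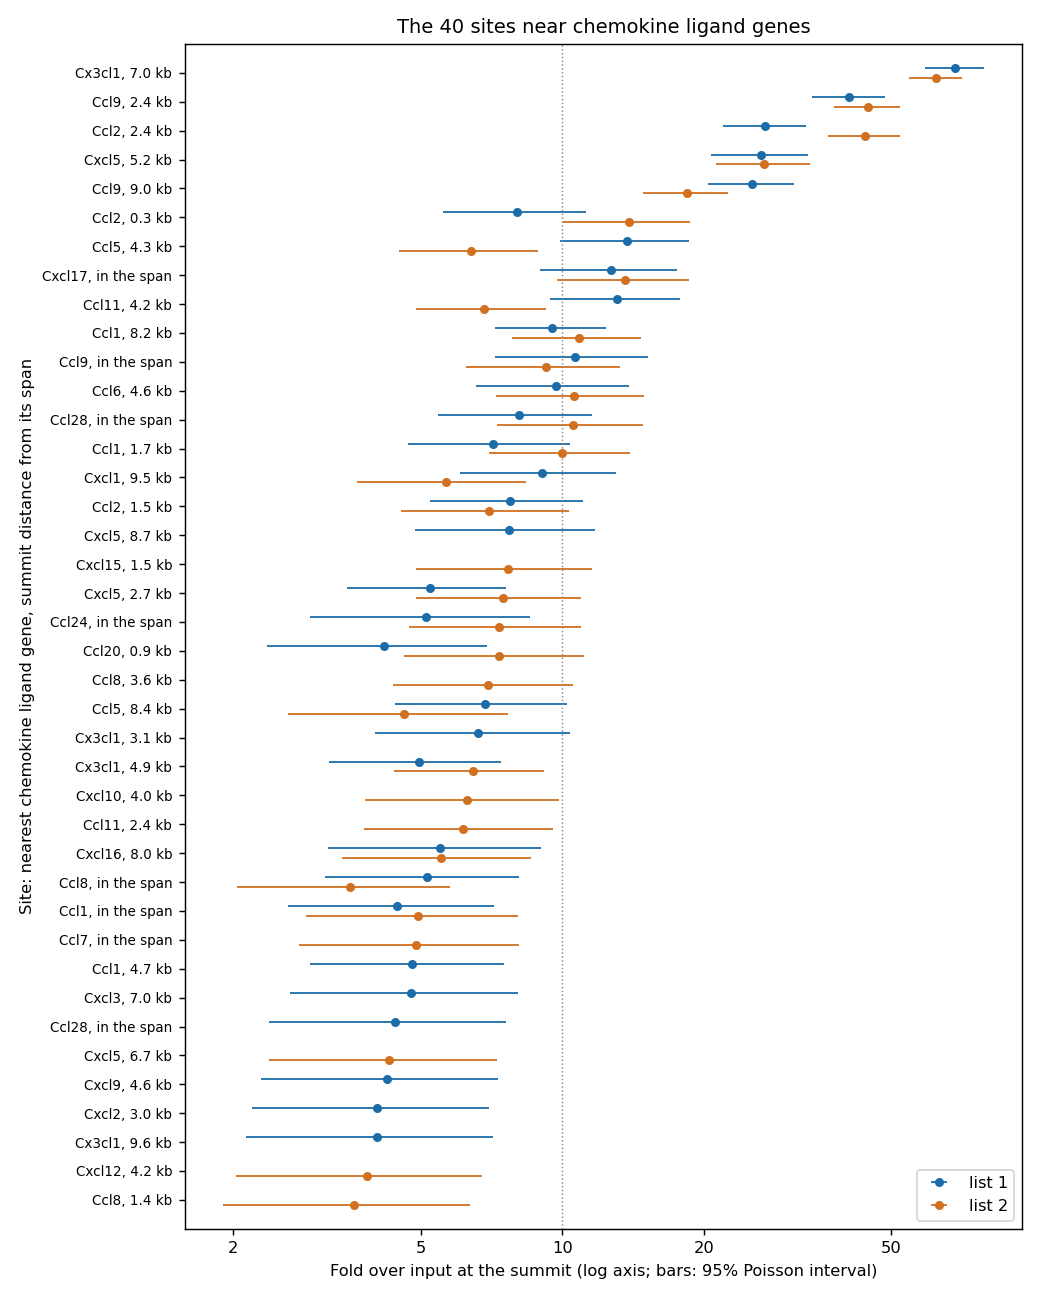
Fold over input at the summit (x axis, log scale) of the 40 sites (y axis, named by the nearest chemokine ligand gene and the summit's distance from its span), blue for list 1 and orange for list 2; points are the authors' folds, bars the 95% exact Poisson intervals and the dotted line 10-fold. The site near Cx3cl1 stands at the top with 68.3-fold in list 1 and 62.2-fold in list 2, and the highest site with a single point has 7.71-fold.

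Promoter sequence was in hand for 28 of the 38 genes, as 34 windows from 250 bases before to 50 after a start site (RefSeq, GRCm38.p6). No peak of list 1 or list 2 touched any of the 34 windows. Over all 21044 windows of the table, 1.69% were touched by a list 1 peak and 1.53% by a list 2 peak. Ccl2, Ccl4, Ccl5, Ccl7, Ccl11, Ccl24, Ccl26, Cxcl5, Cxcl16 and Cxcl17 had no window, so peaks at their promoters could not be counted. Among them, Ccl2 had a summit 282 bp from the lower end of its span in list 1 and 210 bp in list 2. The letters GGAATG, read on both strands, occurred in the windows of 4 of 28 genes (14.3%), against 15.4% of 17273 genes. The stretches are shown because these 4 genes, Cxcl3, Ccl20, Ccl17 and Cxcl13, hold the only matches. Capitals mark the motif, which appears as CATTCC where it lies on the other strand.

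Cxcl3, chr5:90785851-90785880, plus strand: ggggtGGAATGgggagtaggaaagggggca
Ccl20, chr1:83116709-83116738, plus strand: ccttcttgtgtaCATTCCcagtattttgct
Ccl17, chr8:94810306-94810335, plus strand: gaaagccacaaaCATTCCcaagctgggctt
Cxcl13, chr5:95956907-95956936, plus strand: agtctggagctgGGAATGcacgcacagact

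The first motif base lay at -245 in Cxcl3, -45 in Ccl20, -135 in Ccl17 and -20 in Cxcl13, counted from the start site. The Ccl17 window, chr8:94810203-94810502, lay inside the gene's span of chr8:94809380-94812038, so its start site was an internal one. Ccl17 and Cxcl13 had no peak in either list, Cxcl3 had its single peak 6.96 kb away, and Ccl20 had a site past the far end of the gene. The longer form GGAATGT was found in Ccl17 and Ccl20 (7.14%), against 3.99% of all genes with a window.

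The NF-kB motif was found in 8 of 28 genes (28.6%), against 10.7% of all genes with a window, and the AP-1 motif TGACTCA in 5 (17.9%), against 5.44%. Both strands were searched, and no NF-kB match overlapped a TEAD match in these windows. The NF-kB genes were Ccl1, Ccl9, Ccl20, Ccl27a, Cxcl1, Cxcl2, Cxcl3 and Cxcl10, and the AP-1 genes were Ccl27a, Ccl27b, Ccl28, Cxcl9 and Cxcl10. The stretches of Cxcl1, Cxcl2 and Cxcl3 are shown because these neighbouring neutrophil attractants hold the same run of letters, in capitals, shortly before the start.

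Cxcl1, chr5:90891164-90891193, plus strand: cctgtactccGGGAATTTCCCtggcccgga
Cxcl2, chr5:90903792-90903821, plus strand: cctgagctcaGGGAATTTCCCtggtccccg
Cxcl3, chr5:90786018-90786047, plus strand: gagctgcgggGGGAATTTCCCcagcccggg

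The match began at -71 in Cxcl1, -97 in Cxcl2 and -73 in Cxcl3. Cxcl3 and Ccl20 held both the TEAD and the NF-kB letters. In Ccl20 the NF-kB match began at -80, close to the TEAD match, and its whole window is given to show both, with the TEAD motif in capitals.

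Ccl20, chr1:83116516-83116815, plus strand: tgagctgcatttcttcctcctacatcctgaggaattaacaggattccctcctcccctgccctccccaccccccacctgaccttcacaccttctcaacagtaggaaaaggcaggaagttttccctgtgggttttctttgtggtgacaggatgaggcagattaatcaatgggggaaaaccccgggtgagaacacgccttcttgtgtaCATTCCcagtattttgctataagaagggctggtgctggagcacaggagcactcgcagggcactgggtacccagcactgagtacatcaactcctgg

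A match describes the letters of a window and is not a bound site. Apart from promoter windows of other genes that a peak touched, the sequences under the peaks were not analysed here.

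Cx3cl1 had the strongest site of all chemokine ligand genes in both lists. It encodes fractalkine, a chemokine that can stay anchored in the membrane and is read by Cx3cr1 on monocytes and macrophages. The site lay 7.02 kb past the end of the gene, at chr8:94788084-94789957 in list 1 and chr8:94788011-94789952 in list 2. Its summit held 185 fragments over a background of 1.72 in list 1, which gave 68.3-fold (58.9 to 78.8, −log10 q 294). In list 2 it held 238 fragments over a background of 2.84, which gave 62.2-fold (54.6 to 70.6, −log10 q 354). By −log10 q it ranked 36 among the 21285 peaks of list 1 and 78 among the 21218 of list 2. The peak was also broad, at 1874 bp in list 1 and 1942 bp in list 2. The nearest non-coding gene was the long non-coding RNA Gm51543, 3475 bp away.

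Around Cx3cl1 there were 3 weaker sites. The site 4.95 kb before the start was called in both lists, with 22 fragments and 4.97-fold in list 1 and 29 fragments and 6.45-fold in list 2. The sites 3.08 kb and 9.62 kb past the gene were called in list 1 alone, at 6.61-fold and 4.04-fold. Ccl22 and Ccl17, which flank Cx3cl1 and encode the ligands of Ccr4 that attract T cells, had no summit in reach. Seen from Ccl17 the strong site lay 19.9 kb away, and seen from Ccl22 it lay 38.1 kb away.

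In the chromosome 11 cluster from Ccl2 to Ccl1, Ccl2 had the strongest site. Ccl2 encodes the ligand that brings monocytes from blood into tissue through Ccr2. The site lay 2.41 kb below the lower end of the gene, at chr11:82032178-82033674 in list 1 and chr11:82032175-82033851 in list 2. It held 96 fragments over a background of 2.59 in list 1 (27.0-fold, 21.9 to 32.9, −log10 q 108) and 130 over 1.98 in list 2 (43.9-fold, 36.7 to 52.1, −log10 q 179). The intervals did not overlap, and list 1 over list 2 gave a log2 ratio of -0.70. List 2 had both more fragments and the lower background at this summit.

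The next Ccl2 site had its summit 0.28 kb below the lower end of the gene in list 1 and 0.21 kb below it in list 2. It had 32 fragments and 8.03-fold in list 1 (5.57 to 11.2, −log10 q 18.7), at chr11:82035015-82035511. In list 2 it had 41 fragments and 13.9-fold (10.04 to 18.7, −log10 q 35.6), at chr11:82034355-82035539, and that broader peak also covered a separate list 1 peak of 5.74-fold. Another site lay 1.52 kb above Ccl2 and within reach of Ccl7, whose product also binds Ccr2, with 7.74-fold in list 1 and 6.99-fold in list 2. List 2 alone had a peak inside Ccl7, at 4.88-fold on 13 fragments. Ccl2 thus had 3 sites in both lists within 2.41 kb of its span, and Ccl7 had no peak above 7.74-fold within 10 kb. This contrast depends on the window. The 13.9-fold list 2 summit lay 10.34 kb from Ccl7, and its list 1 counterpart of 8.03-fold lay 10.42 kb away. The strongest Ccl2 site lay 12.54 kb from Ccl7.

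Ccl11 encodes eotaxin, which attracts eosinophils through Ccr3. Its site 4.25 kb above the gene, at chr11:82066730-82067537 in list 1 and chr11:82066663-82067433 in list 2, held 39 fragments in each list. The backgrounds were 2.06 in list 1 and 4.87 in list 2, and the folds were 13.1 (9.40 to 17.8, −log10 q 32.7) and 6.81 (4.89 to 9.25, −log10 q 19.3). The intervals of the folds did not overlap although the fragment numbers were equal. A second peak, 2.42 kb above the gene, was called in list 2 alone at 6.17-fold. The folds of the eotaxin genes Ccl24 and Ccl26 on chromosome 5 were lower: they shared a site inside Ccl24 with 5.14-fold in list 1 and 7.34-fold in list 2.

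Further along the cluster, Ccl8, a relative of Ccl2, had a site inside the gene at 5.16-fold in list 1 and 3.53-fold in list 2. List 2 alone added peaks of 6.94-fold and 3.61-fold outside it. Ccl1, which encodes the ligand of Ccr8 on T cells, had 4 sites, 3 of them in both lists. The site 8.16 kb beyond the far end, at chr11:82168129-82168762 in list 1 and chr11:82168234-82168771 in list 2, had 53 fragments over 4.67 in list 1 (9.53-fold, 7.18 to 12.4, −log10 q 33.6). In list 2 it had 40 over 2.77 (10.9-fold, 7.84 to 14.7, −log10 q 29.1). The list with more fragments was therefore the one with the lower fold. Ccl1 also had 7.11-fold in list 1 and 9.997-fold in list 2 at 1.73 kb, 4.45-fold and 4.94-fold inside the gene, and 4.80-fold in list 1 alone. Ccl12, the mouse ligand of Ccr2 that lies between Ccl11 and Ccl8, had no summit in reach: the nearest was 12.35 kb away in list 1 (3.63-fold) and 10.4 kb away in list 2 (3.61-fold).

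The second chromosome 11 cluster holds Ccl5, Ccl9, Ccl6, Ccl3 and Ccl4. Ccl9 and Ccl6 encode rodent chemokines that act on Ccr1 of myeloid cells, and they shared the strongest site of the cluster. It lay 2.41 kb before the start of Ccl9, at chr11:83580545-83581821 in list 1 and chr11:83580678-83581562 in list 2. The summit held 124 fragments in list 1 (40.7-fold, 33.9 to 48.4, −log10 q 166) and 152 in list 2 (44.5-fold, 37.8 to 52.2, −log10 q 206). The lists overlapped in their intervals here. The list 1 peak also covered 11 bp of the promoter window of the long non-coding RNA E230016K23Rik, whose span begins 1017 bp from the summit.

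Ccl9 had further sites on both sides. The site 8.96 kb past its far end, at chr11:83563524-83564454 in list 1 and chr11:83563719-83564323 in list 2, had 90 fragments over 2.59 in list 1 (25.3-fold, 20.4 to 31.1, −log10 q 99.2). In list 2 it had 92 over 4.06 (18.4-fold, 14.9 to 22.5, −log10 q 85.2). This site was nearer to the pseudogene Ccl16-ps, at 1686 bp. Inside Ccl9 a site had 28 fragments in each list, with 10.6-fold in list 1 and 9.25-fold in list 2. A site 4.62 kb below Ccl6 had 9.70-fold in list 1 and 10.6-fold in list 2, and a second list 2 peak of 6.12-fold overlapped the same list 1 peak.

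Ccl5 encodes a chemokine that attracts T cells and monocytes. Its site 4.31 kb above the gene, at chr11:83534435-83535115 in list 1 and chr11:83534628-83535002 in list 2, held 40 fragments over 1.99 in list 1 (13.7-fold, 9.89 to 18.6, −log10 q 34.5). In list 2 it held 34 over 4.47 (6.404-fold, 4.49 to 8.88, −log10 q 16.0). The intervals did not overlap, and the log2 ratio was 1.099 for the folds and 0.23 for the fragments. A weaker site 8.45 kb below the gene lay inside Heatr9, at 6.85-fold in list 1 and 4.62-fold in list 2. Ccl3 and Ccl4, which encode inflammatory chemokines released by macrophages, had no summit in reach, and the nearest lay 24.1 kb from Ccl3 and 24.9 kb from Ccl4 in both lists.

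Of the neutrophil attractants on chromosome 5, which act through Cxcr2, Cxcl5 had the strongest site. It lay 5.16 kb below the gene, at chr5:90753730-90754504 in list 1 and chr5:90753680-90754434 in list 2. The summit held 71 fragments in list 1 (26.4-fold, 20.7 to 33.3, −log10 q 83.3) and 76 in list 2 (26.9-fold, 21.2 to 33.5, −log10 q 89.0). The summits of the lists lay 15 bp apart and the folds were nearly equal. Cxcl5 had another site in both lists, 2.72 kb above it, at 5.25-fold in list 1 and 7.47-fold in list 2. A peak 8.68 kb below it was called in list 1 alone at 7.71-fold.

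A further weak peak in reach of Cxcl5 was called in list 2 alone, at 4.29-fold on 12 fragments, and its summit lay 203 bp before the start of Ppbp. Ppbp encodes a platelet chemokine whose symbol the selection leaves out. Its promoter window is shown because it held the summit of that peak, with the TEAD motif in capitals. The motif began 25 bp above the summit, at -178 from the start. Of all 21044 promoter windows, 13.5% held these letters. The promoter window of E230016K23Rik, covered in part by a 40.7-fold list 1 peak, held no match. Whether TEAD1 bound the Ppbp match was not tested.

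Ppbp, chr5:90768268-90768567, plus strand: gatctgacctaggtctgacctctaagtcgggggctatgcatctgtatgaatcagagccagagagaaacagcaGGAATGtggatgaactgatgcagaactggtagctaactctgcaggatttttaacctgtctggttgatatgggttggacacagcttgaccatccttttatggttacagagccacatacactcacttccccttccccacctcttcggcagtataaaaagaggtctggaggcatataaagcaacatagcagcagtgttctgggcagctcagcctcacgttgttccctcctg

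The other neutrophil attractants had weaker peaks. Cxcl1 had 9.05-fold in list 1 and 5.65-fold in list 2 at a site 9.48 kb before its start. Cxcl2 had 4.05-fold in list 1 alone, 3.05 kb before its start, and that peak was also in reach of Cxcl1. Cxcl3 had 4.77-fold in list 1 alone, and Pf4 was nearer to that summit. Cxcl15, known in mouse as a neutrophil attractant of the lung, had 7.68-fold in list 2 alone, 1.54 kb past its end.

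Among the other CXC ligands, Cxcl17, a chemokine of mucosal tissues, had the strongest site. It lay inside the gene at chr7:25411008-25411512 in list 1 and chr7:25410971-25411598 in list 2. The summit held 35 fragments in list 1 (12.7-fold, 8.96 to 17.5, −log10 q 29.4) and 38 in list 2 (13.6-fold, 9.73 to 18.5, −log10 q 33.1). Cxcl16, the membrane-anchored ligand of Cxcr6, had 5.51-fold in list 1 and 5.53-fold in list 2 at a site nearer to Zmynd15. The interferon-induced ligands of Cxcr3 had 1 peak each, inside the neighbouring gene Art3: Cxcl9 4.24-fold in list 1 alone and Cxcl10 6.28-fold in list 2 alone. Cxcl12, the ligand of Cxcr4 that retains progenitor cells, had the 10-fragment peak of list 2 described above. Cxcl13, which attracts B cells, and Cxcl14 had none.

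Outside the clusters, Ccl28, a ligand of Ccr10 in mucosal tissues, had a site inside its span at chr13:119635468-119636153 in list 1 and chr13:119635462-119635924 in list 2. It had 28 fragments in list 1 (8.07-fold, 5.46 to 11.5, −log10 q 16.8) and 31 in list 2 (10.6-fold, 7.28 to 14.9, −log10 q 23.1). Another peak inside Ccl28 had 4.41-fold in list 1 alone. Ccl20, the ligand of Ccr6, had 4.17-fold in list 1 and 7.33-fold in list 2 at a site 0.88 kb past its end.

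No summit was in reach of 15 genes in either list. Besides Ccl12, Ccl3, Ccl4, Ccl22, Ccl17, Cxcl13, Cxcl14 and Xcl1 these were Ccl25, which guides T cells to gut and thymus, and Ccl27a, Ccl27b, Ccl19, Ccl21a, Ccl21b and Ccl21d on chromosome 4. Ccl19 and the Ccl21 genes encode the ligands of Ccr7 that bring lymphocytes to lymph nodes. From 100 kb below Ccl27a to 100 kb above Ccl21a, neither list held a summit. The Ccl21 and Ccl27 genes are near-identical copies, how reads with several matching positions were treated is not stated in the labels, and the part of that in the empty stretch was not tested.

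Near the limit of the window, the summits farthest from a span and still inside it were at 9.62 kb from Cx3cl1 in list 1 (4.04-fold) and at 9.74 kb from Ccl2 in list 2 (4.88-fold), the second being the peak that lies inside Ccl7. Of the genes without a peak in reach, the nearest outside it were Ccl12 at 10.4 kb in list 2 and Ccl25 at 11.4 kb in both lists. The Ccl25 site had 11.7-fold in list 1 and 7.30-fold in list 2.

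At the 24 sites called in both lists, the folds of list 1 and list 2 were mostly close. Their median log2 ratio, list 1 over list 2, was -0.11, beside -0.15 for the 15015 pairs over all peaks. List 1 was higher at 9 sites and list 2 at 15. The intervals were apart at 3 sites. These were Ccl2 at 2.41 kb (lower in list 1), and Ccl11 at 4.25 kb and Ccl5 at 4.31 kb (both higher in list 1). The share of the 15015 pairs with intervals apart is not given here, and the intervals leave out counting error of the input. Whether these 3 sites differ more than other pairs was not tested. At Ccl11 and Ccl5 the input background of list 2 was more than 2 times that of list 1, as the backgrounds above show. Summits of the lists lay a median of 37.5 bp apart and at most 150 bp apart. The median log2 ratio of the fragments themselves was -0.10 at these sites and -0.21 over all pairs, so that it was 0.11 at these sites once scaled to the median of all pairs.

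**Figure D3:**
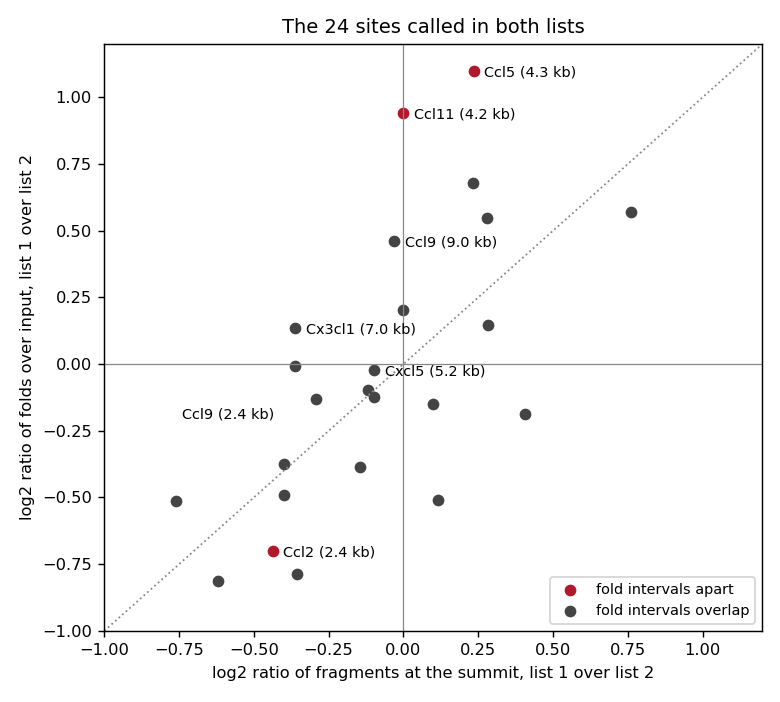
The 24 sites called in both lists, with the log2 ratio of fragments at the summit on the x axis and of folds over input on the y axis, both list 1 over list 2; red points are the 3 sites whose fold intervals do not overlap, grey points the rest, and the dotted line marks equal ratios. Ccl5 and Ccl11 lie far above the dotted line, with fold ratios of 1.099 and 0.94 and fragment ratios of 0.23 and 0.00, and Ccl2 lies at -0.70 and -0.44.

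Of 18 chemokine receptor genes, 4 (22.2%) had a summit in reach in each list, beside 33.9% of all protein-coding genes in list 1 and 34.0% in list 2, and no test was made of this. They were Ccr6, Cx3cr1, Cxcr6 and Xcr1. None reached 10-fold. Of 5 scavenging and related receptors, Ackr4 and Ccrl2 had a peak in list 1 and Ackr4 had one in list 2. Ackr4 had 10.6-fold in list 1 and 4.88-fold in list 2. The scavenging receptors bind chemokines without the usual signalling. Cx3cr1, the receptor of fractalkine, had 3.34-fold in list 1 and 3.38-fold in list 2.

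Of 17 genes of the NF-kB pathway, 7 (41.2%) had a peak in each list, beside the same backgrounds of 33.9% and 34.0%. Nfkb1, which encodes a subunit of the factor, had a site inside its span with 200 fragments and 58.7-fold (50.9 to 67.4) in list 1 and 262 fragments and 78.8-fold (69.6 to 88.9) in list 2. Il1r1, the interleukin 1 receptor that feeds the pathway, had its strongest peak at 15.8-fold in list 1 and at 17.0-fold in list 2, at different places inside its span. Rel, another subunit, had 12.1-fold in list 1 and 7.03-fold in list 2, 0.45 kb from its span. Pf4 and Ppbp, the platelet chemokines outside the symbol rule, had peaks in both lists, the strongest of them 5.25-fold in list 1 and 7.47-fold in list 2 at the site shared with Cxcl5.

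Of 9 fibroblast marker genes, 8 had a peak in list 1, 8 in list 2 and 8 in both. For 6 leukocyte markers these counts were 3, 0 and 0. For 5 cardiomyocyte markers they were 4, 2 and 2, and for 4 endothelial markers 3, 2 and 1. Over all protein-coding genes the shares were 33.9% in list 1, 34.0% in list 2 and 28.1% in both. In list 1 most of the fibroblast, cardiomyocyte and endothelial markers thus had a peak. Some marker genes are long, such as Ddr2 with 138.5 kb and Ryr2 with 553.8 kb. The median span of all protein-coding genes was 17.4 kb, and the shares were not matched for span. No test was made between the marker lists. A peak near a marker gene does not show that the gene is expressed.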

How the data were processed

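Per the submitters' processing notes, the authors used Trimmomatic 0.33 for trimming, Bowtie 1.1.2 for alignment and MACS2 for calling peaks against input. Versions and settings of MACS2, the handling of duplicate reads and library sizes are not given in the sources consulted. Each deposited list gives peak positions, a summit, a score (10 times −log10 q, whole part), the authors' ratio (fold) of ChIP pileup to local input background with 1 added to both, and, per peak, the authors' −log10 p and −log10 q. These single-peak values served only for description, ranking and filtering.

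The notes name mm39. The coordinates were read as GRCm38, because summits were denser within 500 bp of the 17273 RefSeq GRCm38.p6 gene starts than 20 to 30 kb away. There were 19.6 summits per 1000 starts per kb near starts in list 1 and 17.5 in list 2, against 10.9 and 10.6 at the distance. No coordinate was converted, and positions count from 1.

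The number of ChIP fragments and the local background at each summit were solved from the deposited fold and p. Fragments came out whole, within 0.02, for all 21285 peaks of list 1 and all 21218 of list 2. The solver was tested on simulated data. Exact Poisson 95% intervals of the fragments, over the solved background, gave the intervals of the folds and cover counting error of the ChIP library only. The lowest background was 1.72 fragments in list 1 and 1.87 in list 2.

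Gene spans, names and promoter windows came from the RefSeq tables. Protein-coding genes on chromosomes 1 to 19 and X were used, leaving out genes that end below 3 Mb, where the table gives scaffold positions. Every gene with a peak was named with its strongest fold, and positions and intervals were given for genes that reached 10-fold in a list. Of the receptor and NF-kB lists, genes that reached 10-fold were named. The marker genes were counted, with Ddr2 and Ryr2 named for their spans. The receptors with a peak, Ccrl2, Pf4 and Ppbp were added after their values were seen. The ligand classes follow textbook knowledge, since no protein sequences were used here. The members and lists were chosen with earlier results of these data known. No set test was made. Alternatives varied the distance, the peak threshold, the overlap and the rule that assigns peaks. Calculations used Python 3.11.15, numpy 2.4.6, pandas 2.3.3 and scipy 1.17.1.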

Additional observations from a re-analysis of the deposited data

How the results depend on the processing

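With summits within 1 kb, 8 genes in list 1, 9 in list 2 and 8 in both had a peak, with 9 distinct peaks in each list. The shares were 21.1% in list 1 and 23.7% in list 2, against 23.2% of all protein-coding genes in each. With 50 kb, 29 genes in list 1, 30 in list 2 and 29 in both had one, with 58 and 61 peaks. The shares were 76.3% in list 1 and 78.9% in list 2, against 58.5% and 59.3% of all protein-coding genes. With peaks of at least 10-fold the genes were 8, 8 and 6 and the peaks 9 and 10. The share was 21.1% in each list, against 11.6% of all protein-coding genes in list 1 and 13.5% in list 2. With the 5000 peaks of highest −log10 q the genes were 9, 7 and 7, with 10 and 8 peaks. The shares were 23.7% in list 1 and 18.4% in list 2, against 11.6% and 11.5% of all protein-coding genes. Without the 2 chromosome 11 clusters the density was 22.3 per Mb in list 1 and 18.4 in list 2. The 7-letter TEAD motif was in 2 promoters against 4. The median log2 ratio of -0.11 became 0.11 with scaled fragments and was -0.10 with unscaled ones. A 5 kb window, summits near gene ends only, a −log10 q of at least 5, peak intervals in place of summits and leaving out the Ccl21 and Ccl27 copies kept each count within 1.5 times of the reported one. Counting a peak for the nearest gene alone left 15 genes in list 1 and 17 in list 2. The matching share of all protein-coding genes under that rule is not given here. The shared percentage was 63.6 to 81.5 under stricter overlaps and thresholds. The nearest-gene rule and the density without chromosome 11 clusters were chosen after seeing the data. No paired analysis was possible because each group held 1 library and no test was made.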

Other observations

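A strong site lay between Cxcl15 and Cxcl1, outside the 10 kb window, 15.0 kb before the start of Cxcl1. It was called at chr5:90875881-90877299 in list 1 and chr5:90875797-90877299 in list 2. Its summit held 83 fragments in list 1 (30.8-fold, 95% exact Poisson interval 24.6 to 38.2, −log10 q 103) and 93 in list 2 (27.4-fold, 22.1 to 33.5, −log10 q 107). Its fold was higher in both lists than that of any peak within 10 kb of Cxcl1, Cxcl2, Cxcl3, Cxcl5 or Cxcl15, though its intervals overlapped those of the strongest Cxcl5 site. It was named after its values were seen. The empty stretch around the Ccl21 and Ccl27 genes was wide, since the nearest summit to Ccl21b lay 527 kb away in list 1 and 552 kb away in list 2. Cxcl14 was likewise 147 kb from the nearest summit in both lists.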
